A study of Mus musculus with 10 samples.

Results

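Accessible DNA was mapped by ATAC-seq, an assay built on a transposase that inserts sequencing tags into open chromatin, in 4 libraries of frozen liver tumour tissue labelled WT, out of 10 libraries in the series. The genotype label of the WT tumours is LAP-tta; Arid1a fl/fl; TRE-MYC on the FVB strain, at an age of about 55 days, with no Cre. Both Arid1a alleles were therefore floxed but not exposed to a recombinase. LAP is a liver promoter taken from Cebpb, and the activator it drives switches on a MYC transgene once doxycycline is taken out of the drinking water. Tumours were collected when the mice died. Nothing in the labels ties the 4 numbered WT libraries to 4 different mice, so the spread given here is the spread between libraries. Regions called open in each library (rows of the authors' peak lists on the 19 autosomes and X) were joined across the 4 lists wherever they overlapped by at least 1 bp. The joined set held 11327 regions, and the 5168 (45.6%) present in every WT list are named shared regions here.

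Open chromatin marks stretches of DNA that are free of tightly packed nucleosomes, mostly gene promoters and distant enhancers. Promoters rich in the dinucleotide CpG tend to stay open in most cell types, whereas promoters of liver-restricted genes are often CpG-poor and depend on liver transcription factors of the HNF, FOXA and C/EBP families. MYC, with its partner MAX, binds the E-box letters CACGTG and is best known for driving ribosome production and growth. ARID1A is a subunit of the SWI/SNF complexes that move nucleosomes.

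The promoter windows of 7 genes are printed because the results below turn on them. Each is the RefSeq window of GRCm38.p6 from 250 bases before to 50 bases after the annotated start, read 5′ to 3′ on the gene's strand. Of the 4 genes with the strongest gene-end regions, Cebpb (chr2:167688665-167688964, plus strand) and Cwc22 (chr2:77946307-77946606, minus strand) are those whose window a region overlapped in all 4 lists. Prmt5 (chr14:54517421-54517720, minus strand), Btg2 (chr1:134079106-134079405, minus strand) and Tcp1 (chr17:12916079-12916378, plus strand) led or nearly led the lists of growth, immediate early and chaperone genes. Eif4a1 (chr11:69672374-69672673, minus strand) was the strongest growth gene with an E-box, and Alb (chr5:90460620-90460919, plus strand) is shown as a CpG-poor contrast that a region overlapped in only 1 of the 4 lists. Eif4a1 and Alb were chosen after their values were seen. Capitals mark matches, on either strand, to 13 short motifs, and neighbouring matches can overlap.

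Cebpb: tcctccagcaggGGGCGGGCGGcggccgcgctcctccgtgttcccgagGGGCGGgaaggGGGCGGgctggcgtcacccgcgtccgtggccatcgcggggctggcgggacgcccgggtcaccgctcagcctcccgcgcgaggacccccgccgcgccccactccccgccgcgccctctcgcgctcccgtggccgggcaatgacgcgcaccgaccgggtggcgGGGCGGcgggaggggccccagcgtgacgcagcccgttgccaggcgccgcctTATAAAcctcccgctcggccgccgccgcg
Cwc22: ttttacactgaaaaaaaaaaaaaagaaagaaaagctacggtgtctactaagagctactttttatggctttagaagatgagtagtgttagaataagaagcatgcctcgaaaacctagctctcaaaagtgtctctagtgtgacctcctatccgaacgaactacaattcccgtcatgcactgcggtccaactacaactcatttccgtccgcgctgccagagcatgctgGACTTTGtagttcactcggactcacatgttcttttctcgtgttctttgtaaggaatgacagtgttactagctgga
Prmt5: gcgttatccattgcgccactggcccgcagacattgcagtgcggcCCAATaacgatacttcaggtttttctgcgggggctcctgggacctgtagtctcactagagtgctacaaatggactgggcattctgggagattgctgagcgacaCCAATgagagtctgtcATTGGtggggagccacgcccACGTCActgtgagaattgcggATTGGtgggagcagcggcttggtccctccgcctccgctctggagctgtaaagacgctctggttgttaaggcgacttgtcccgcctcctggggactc
Btg2: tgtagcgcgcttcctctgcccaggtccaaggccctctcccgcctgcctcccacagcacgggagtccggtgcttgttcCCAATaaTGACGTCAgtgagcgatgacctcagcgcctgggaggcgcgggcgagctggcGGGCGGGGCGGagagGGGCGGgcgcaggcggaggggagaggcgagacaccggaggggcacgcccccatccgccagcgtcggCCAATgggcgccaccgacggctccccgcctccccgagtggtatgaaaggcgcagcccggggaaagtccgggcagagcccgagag
Tcp1: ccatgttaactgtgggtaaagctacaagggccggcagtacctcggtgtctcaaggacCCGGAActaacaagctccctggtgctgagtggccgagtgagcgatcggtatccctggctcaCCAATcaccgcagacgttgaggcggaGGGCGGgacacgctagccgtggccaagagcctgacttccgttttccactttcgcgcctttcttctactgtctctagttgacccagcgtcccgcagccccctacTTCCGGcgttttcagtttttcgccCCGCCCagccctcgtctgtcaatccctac
Eif4a1: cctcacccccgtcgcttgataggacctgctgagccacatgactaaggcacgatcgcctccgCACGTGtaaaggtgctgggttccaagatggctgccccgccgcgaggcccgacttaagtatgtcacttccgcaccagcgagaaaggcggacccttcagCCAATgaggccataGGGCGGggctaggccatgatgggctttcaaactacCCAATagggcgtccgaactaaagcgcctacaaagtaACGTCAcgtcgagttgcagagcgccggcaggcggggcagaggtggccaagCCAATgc
Alb: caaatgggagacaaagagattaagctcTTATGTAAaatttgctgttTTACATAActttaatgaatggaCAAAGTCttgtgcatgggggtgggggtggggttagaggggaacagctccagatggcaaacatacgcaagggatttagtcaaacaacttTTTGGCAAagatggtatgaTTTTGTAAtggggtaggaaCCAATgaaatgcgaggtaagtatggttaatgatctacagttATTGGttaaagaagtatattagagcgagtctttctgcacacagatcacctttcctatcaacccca

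The capitals in Cebpb are 5 GC boxes (GGGCGG, present in 46.7% of all 21045 promoter windows) and a TATA box (TATAAA, 12.7%). Cwc22 held a single match, to the HNF4 letters CAAAGTC (4.17% of windows). Prmt5 held 4 CCAAT boxes (CCAAT, 38.5%) and 1 cyclic AMP response core (TGACGT, 8.58%). Btg2 held 3 GC boxes, 2 CCAAT boxes and 2 overlapping response cores. Tcp1 held 2 ETS cores (CCGGAA, 18.9%), 2 GC boxes and 1 CCAAT box. Eif4a1 held 1 E-box (CACGTG, 7.91%), 3 CCAAT boxes, 1 GC box and 1 response core. Alb held 4 matches to the C/EBP letters TTNCNNAA (37.4%), 1 HNF4 match and 2 CCAAT boxes. The Cebpb window counted 50 CpG pairs and the Alb window 3. A match shows only that these letters are present.

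The 4 libraries differed in depth and in the number of regions. WT 1, WT 2, WT 3 and WT 4 had 9526, 8355, 6731 and 8490 regions, or 8275.5 ± 1155 (SD, n = 4), covering 3.89, 3.23, 2.56 and 3.51 Mb. The background recovered from the lists was 1.75, 1.13, 0.985 and 1.4 tags per 200 bp, so the deepest library had the most regions and the shallowest the fewest. The shared regions made up 54.3%, 61.9%, 76.8% and 60.9% of the regions of WT 1, WT 2, WT 3 and WT 4. A further 1937 regions were called in 3 lists, 1703 in 2 and 2519 in 1. Regions called in more libraries were stronger and lay more often at genes. Within each list every region was given a rank by the authors' −log10 p, from 0 to 100 for the strongest, and ranks were averaged over the lists that called it. The median rank was 60.8 for regions in all 4 lists, 38.1 in 3, 28.5 in 2 and 18.5 in 1. The share at a gene end, meaning within 1000 bp of either annotated end of a protein-coding gene, was 81.7%, 74.3%, 61.1% and 48.0% in the same order. Across the 5168 shared regions, Spearman's rho of the −log10 p between pairs of libraries lay between 0.387 and 0.509, as a description, since libraries share the genome and its background.

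Shared open chromatin in the WT tumours lay mostly at genes. Of the shared regions, 4223 were at a gene end, 577 lay elsewhere in a gene body and 368 were intergenic. Over all regions, the gene-end share was 71.8% in WT 1, 74.4% in WT 2, 79.5% in WT 3 and 77.0% in WT 4, a mean of 75.7% ± 3.33 (SD, n = 4). Gene-end regions were the widest and intergenic ones the narrowest in each library. The median width was 470, 422, 384 and 461 bp at gene ends in WT 1 to WT 4, against 459, 405, 361 and 434 bp in gene bodies. In intergenic DNA it was 400.5, 373.5, 315 and 381.5 bp in the same libraries. Gene ends exceeded gene bodies by a mean of 19.5 bp ± 7 (SD, n = 4) and intergenic regions by 66.6 bp ± 13.0, and gene bodies exceeded intergenic regions by 47.1 bp ± 11.6. All 3 differences had the same sign in 4 of 4 libraries. The exact two-sided sign-flip permutation test over 4 libraries gave p = 0.13 for each (0.161 after Benjamini-Hochberg adjustment over 9 tests), which is the smallest p this test allows with 4 libraries, so it could not pass 0.05.

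**Figure D1:**
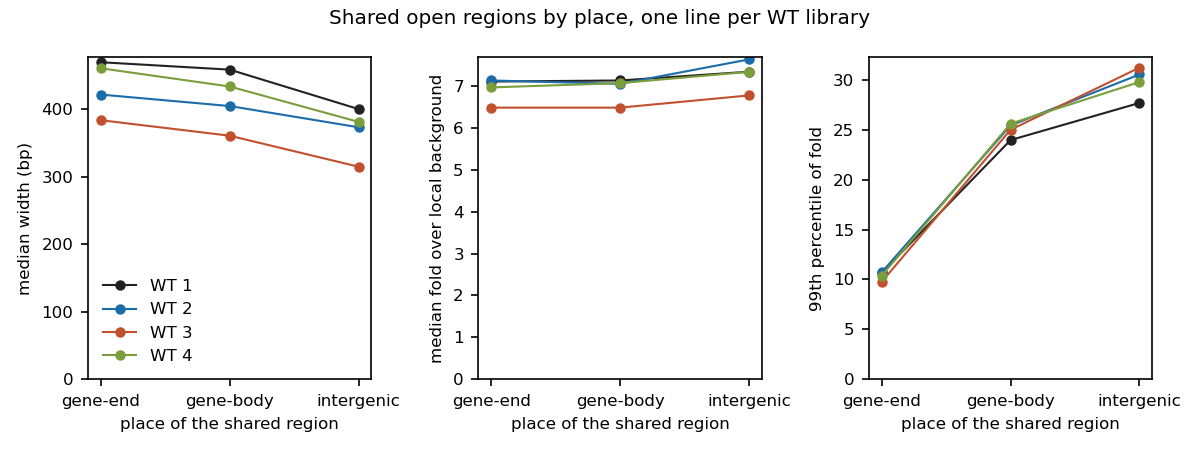
Median width (left, bp), median fold over local background (middle) and the 99th percentile of fold (right) of shared regions at gene ends, in gene bodies and in intergenic DNA, with 1 line per WT library. Width falls toward intergenic DNA in 4 of 4 libraries while the 99th percentile of fold is 9.76 to 10.7 at gene ends and 27.7 to 31.2 in intergenic DNA.

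Median strength was highest in intergenic regions, and gene ends and gene bodies were close. The authors' fold is the tag pileup at the summit over the local background. Its median was 7.12, 7.14, 6.49 and 6.98 at gene ends in WT 1 to WT 4, against 7.14, 7.06, 6.49 and 7.08 in gene bodies. The mean difference of −0.01 ± 0.08 (SD, n = 4) had no common direction (exact permutation p = 0.75, adjusted 0.75), and its sign changed when WT 3 or WT 4 was left out (0.07 and 0.02). The difference in −log10 p was −0.07 ± 0.27, also with no common direction (exact permutation p = 0.75, adjusted 0.75). In intergenic DNA the median fold was 7.35, 7.65, 6.79 and 7.35. Gene ends were lower than intergenic regions by a difference of −0.35 ± 0.12 in fold and −3.14 ± 0.517 in −log10 p (SD, n = 4), in 4 of 4 libraries (exact permutation p = 0.13, adjusted 0.161 for both). Without WT 3 the difference in fold was −0.19 and that in −log10 p −1.61. Without the shared regions of mean fold 15 or more, a bound chosen after the values were seen, the difference in fold was −0.02 (6.93 at gene ends and 6.95 in intergenic DNA, exact permutation p = 0.875). The difference in −log10 p was then −1.74 (exact permutation p = 0.13). The intergenic class had a long upper tail. Its 90th percentile of fold lay between 17.1 and 18.8, against 8.17 to 8.98 at gene ends.

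A small set of very strong, narrow regions lay mostly in intergenic DNA and gene bodies. Of the shared regions, 81 had a mean fold of 15 or more: 2 at gene ends, 31 in gene bodies (5.37% of them) and 48 in intergenic DNA (13.0%). Their median width was 337 bp, against 434 bp for the other 5087 shared regions. The median coefficient of variation of their fold over the 4 libraries was 6.60%, against 12.9% for the others, as a description of regions chosen by fold. Of the 100 strongest shared regions by rank, 3 were at gene ends, 30 in gene bodies and 67 in intergenic DNA. The strongest of all, chr9:35305135-35305671, lay within the long noncoding RNA gene Gm33838, 29178 bp from the nearest coding gene end (Rpusd4). Its fold was 27.0, 28.3, 27.7 and 26.4 in WT 1 to WT 4. The next were chr12:3109783-3110192 (fold 34.9 ± 0.885, SD, n = 4), 137236 bp from the nearest coding gene end (Rab10), and chr12:97061351-97061864 (27.8 ± 0.468), more than 1 Mb from the nearest, Galc. All 3 stood at a rank of 99.97 or higher. In gene bodies the strongest lay in Zc3h7a, which encodes a zinc finger protein (chr16:11143839-11144384), with a fold of 25.5, 25.6, 25.4 and 25.3. Its summit pileup was 299, 299, 296 and 301 tags in WT 1 to WT 4, nearly equal although the libraries differed in depth. The local background there averaged 10.8 tags. A region in the overlapping genes Cmss1 and Filip1l had a mean fold of 20.8. The regions in Chl1, a neural adhesion molecule, and Cdk8, the kinase of the Mediator complex, had 33.9 and 24.3. The remaining members of the 8 strongest gene-body regions lay in Peak1, Arhgap21, 2210408I21Rik and Gphn, with mean folds from 22.1 to 29.4. Of the 31 gene-body regions of this set, 30 had no coding start of the promoter table within 1 kb of the summit, and 1 was on chromosome 18, which the table leaves out.

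Some regions of high rank had a modest fold. Regions on chromosome 2 more than 1 Mb from Lrrc4c, at chr2:98662200-98663002 and chr2:98666226-98667363, had mean folds of 4.93 and 5.84 at mean ranks of 99.5 and 99.8. A pair of regions inside Myo3a, an unconventional myosin of sensory cells, had mean folds of 6.20 and 6.62 at ranks of 99.5 and 99.6. Any regions removed by the authors were not given in the sources used here. Overlap of the very strong regions with repeated or collapsed sequence was not tested, so their strength is not shown to be open chromatin.

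**Figure D2:**
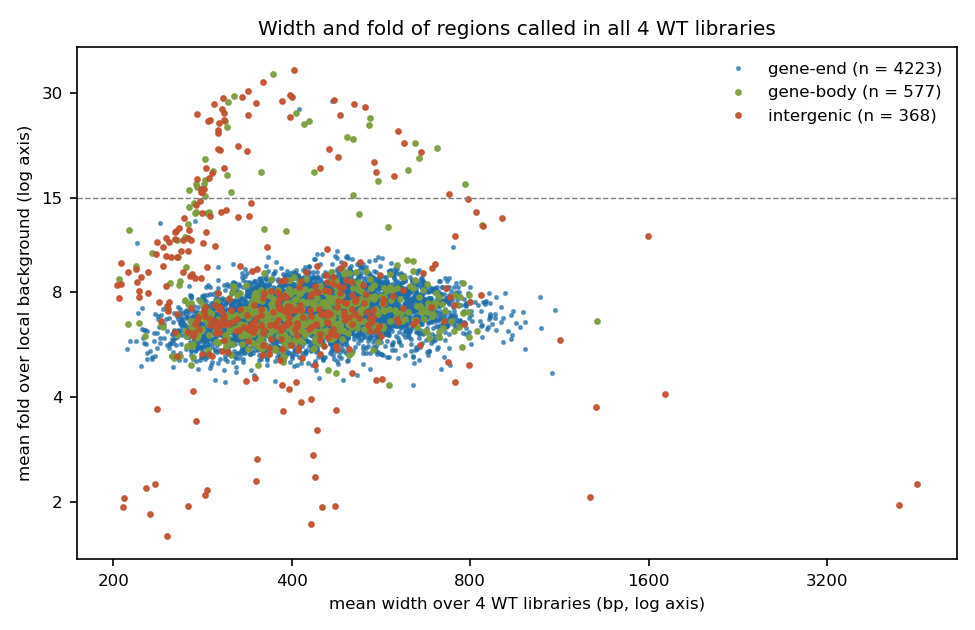
Mean width (bp, log axis) and mean fold over local background (log axis) of each of the 5168 shared regions, coloured by place, with a dashed line at a fold of 15. The regions above the line are 31 in gene bodies, 48 intergenic and 2 at gene ends, and most gene-end regions form 1 cloud between folds of 5 and 10.

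Among shared gene-end regions the strongest belonged to Lars2, Sspn, Cebpb and Cwc22. Lars2 encodes the mitochondrial leucyl-tRNA synthetase, and its region (chr9:123461777-123462268) had a fold of 27.2, 28.6, 29.4 and 28.2 in WT 1 to WT 4. It lay 95093 bp downstream of the annotated start, 407 bp from the other gene end. Sspn encodes sarcospan, a membrane protein of the dystrophin complex, and its region (chr6:145932684-145933113) had a fold of 25.1, 27.0, 27.1 and 28.8. Its summit lay 1050.5 bp downstream of the nearest annotated Sspn start. These were the 2 gene-end regions with a mean fold above 15, and the remaining 13 of the 15 strongest lay between 5.4 and 12.9.

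Cebpb, a liver transcription factor of the acute phase and regeneration, was the only gene with 2 of the 15 strongest gene-end regions. Its upstream region (chr2:167687581-167688005), with the summit at −1114.5 bp from the start, had a fold of 10.5, 10, 7.44 and 7.73. The second region (chr2:167688535-167689180) covered the start and the window printed above, with a fold of 6.86, 5.80, 7.89 and 6.31. The mean ranks were 98.8 ± 0.523 and 97.5 ± 1.5 (SD, n = 4). The local background at the upstream region averaged 8.36 tags, above the 0.985 to 1.75 recovered as the lowest of each library. The LAP activator transgene carries Cebpb promoter sequence, and reads from it and from the Cebpb gene cannot be told apart in these lists. Cwc22, a splicing factor of the exon junction pathway, ranked 98.4 ± 0.263 with a fold of 5.43, 5.70, 5.85 and 4.61 over a local background of 16.2 tags, the highest background among the 15.

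The other 10 of the 15 strongest gene-end regions lay at genes of varied function. Oasl1, an interferon-induced gene, had a narrow region with its summit at −734.5 bp from the start and a fold of 12.2, 13.7, 12.1 and 13.4. An end of the long noncoding gene Gm13822 lies within 1 kb of it. Rbm39, a splicing factor, had a fold of 10.6, 10.3, 9.85 and 9.68, and Desi2, a deSUMOylating enzyme, had 10.6, 9.47, 9.74 and 10.2. Actr3, a subunit of the actin-branching Arp2/3 complex, averaged 10.1 ± 1.03 (SD, n = 4), and Top1, DNA topoisomerase I, averaged 10.05 ± 1.32. Regions shared by neighbouring genes stood at Snx5 and Mgme1 (8.80 ± 0.415), Hs2st1 and Selenof (10.2 ± 1.29) and Htra2 and Aup1 (8.35 ± 0.699). Fxr2, an RNA-binding relative of the fragile X protein, averaged 10.5 ± 1.84, and Nudt9, an ADP-ribose hydrolase, 10.1 ± 0.557.

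**Figure D3:**
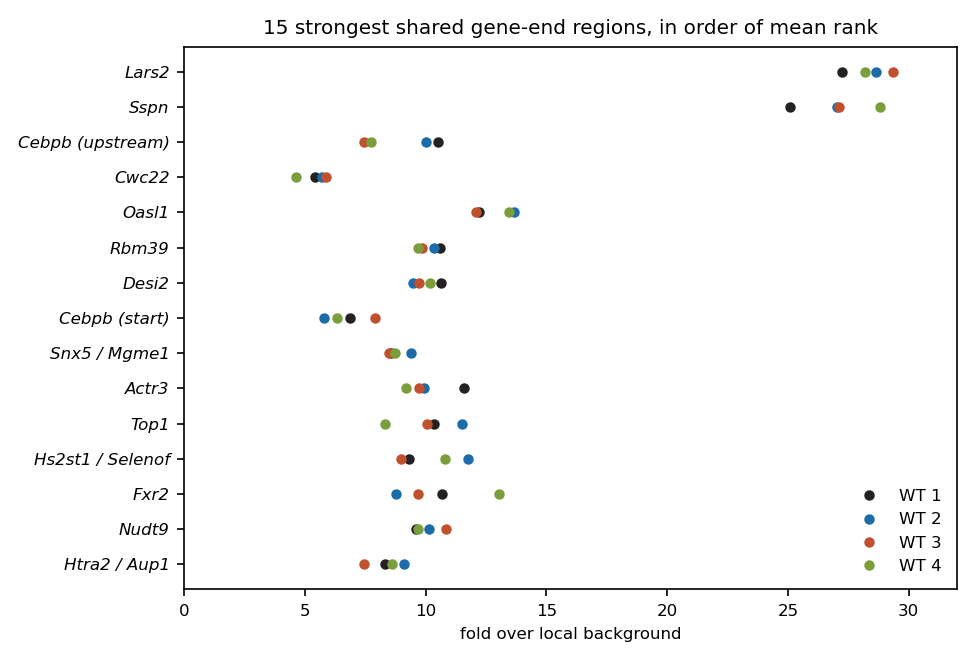
Fold over local background of the 15 strongest shared gene-end regions, top to bottom by mean rank of the −log10 p, with 1 point per WT library. Lars2 and Sspn stand between 25.1 and 29.4 and the other 13 between 4.61 and 13.7.

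Width told the gene-end regions apart in another way. The widest shared gene-end region, near the predicted gene Gm34296 (chr4:133813174-133814627), measured 1454, 1153, 681 and 1160 bp in WT 1 to WT 4. Jund, a subunit of the AP-1 factor, came next with 1068, 1084, 1102 and 1143 bp, at a fold of 4.70 ± 0.235 (SD, n = 4). The Jund summit pileup averaged 40.75 tags over a local background of 7.89 tags. Lnpep, Stt3b and Rbm15 followed, with mean widths of 1052, 1050 and 990.5 bp. The narrowest were Arpp19, Rpp25l, Copz2, Gm20594 and Sh3bp2, with mean widths from 211 to 220 bp. The weakest gene-end region still called in all 4 lists was that of Heca, with a mean rank of 7.13 and a fold of 5.56, 4.96, 4.96 and 4.30. The strongest one missing from a list was that of Gm32584, with a fold of 14.6, 17.3 and 16.8 in WT 1, WT 2 and WT 4 and no call in WT 3. Across shared gene-end regions, Spearman's rho of mean width with mean fold was 0.254 (n = 4223 regions), against −0.12 for the 368 intergenic ones, both as a description.

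Most gene-end regions sat at or near annotated starts. Start positions on the gene's strand were taken from the RefSeq promoter table, which held no chromosome 18 genes, leaving 4115 shared gene-end regions. Of these, 84.2% had the summit within 1 kb of a coding start, 52.9% within 100 bp and 35.5% in the 100 bp just upstream. The median fold was 7.06 in those 100 bp and 6.91 in the first 100 bp downstream. Many gene-body regions also marked a start: 345 of 559 (61.7%) had the summit within 1 kb of an annotated start inside the gene. Their median width was 427 bp, against 384 bp for the 182 gene-body regions at neither a coding start nor a noncoding gene end, chromosome 18 left out. Of the 368 intergenic regions, 124 lay within 1 kb of a noncoding gene's end. These 124 had a median width of 424 bp, a median fold of 6.78 and a median rank of 63.8. The 231 intergenic regions at neither a coding start nor a noncoding gene end had 344 bp, 7.68 and 85.2, chromosome 18 left out.

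CpG content separated promoters with and without a shared region. Windows overlapped by a shared region (4780 of 21045) held a median of 26 CpG pairs, against 22 for regions in 1 to 3 lists and 5 for windows with no region. A shared region covered 0.0858% of windows with 0 to 1 CpG pairs, 12.3% with 9 to 13, 37.1% with 19 to 22 and 52.2% with 28 to 34. The letters of short motifs differed too. The GC box was present in 77.5% of windows with a shared region, against 46.7% of all windows. The NRF1 core TGCGCA stood at 20.9% against 9.74%, and the ETS core at 35.5% against 18.9%. The E-box CACGTG was in 11.5% against 7.91%, and in 11.6% of windows with a region in 1 to 3 lists. Among shared windows it was in 11.1% of the 1195 of highest rank and 13.4% of the 1195 of lowest rank. The TATA box was rarer, at 4.18% against 12.7%, as were the AP-1 letters TGANTCA, at 3.16% against 7.04%, and the FOXA letters TGTTTAC, at 2.22% against 3.03%. The part of CpG content in these motif shares was not tested.

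**Figure D4:**
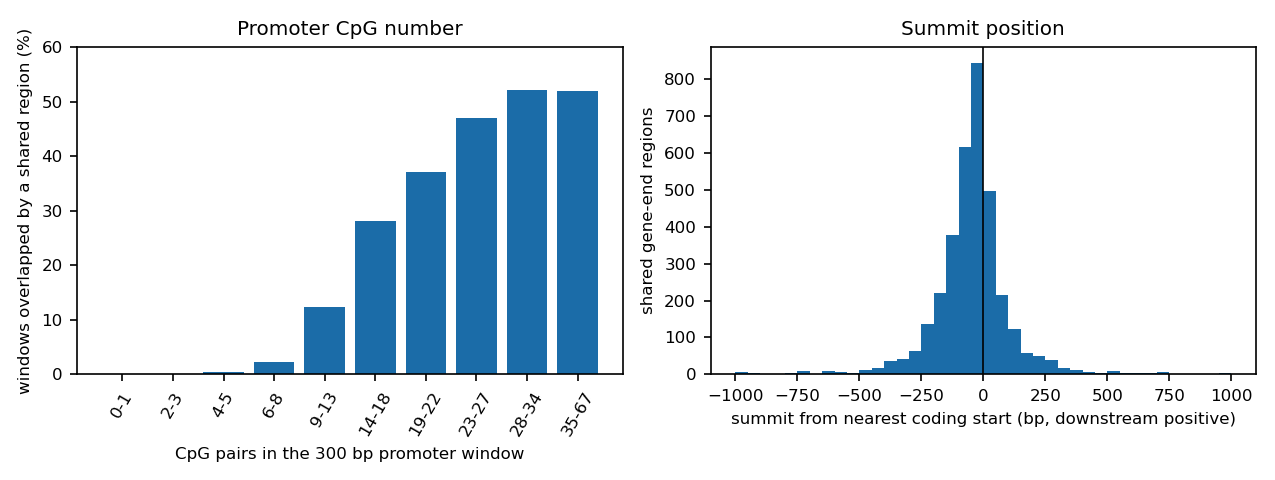
Left, percent of 300-base promoter windows overlapped by a shared region, by the number of CpG pairs in the window. Right, number of shared gene-end regions by the distance of their summit from the nearest coding start (bp, downstream positive), with the tallest bars in the 100 bp upstream of the start.

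Liver genes varied by function. A shared gene-end region was present at 5056 of 21631 protein-coding genes (23.4%), with a median rank of 60.9, 17.2% had one in 1 to 3 lists and 59.5% had none. A shared region in the gene or within 10 kb was present at 32.1% of genes, and a region of any list at 53.2%. The lists of liver genes together reached 40 of 161 (24.8%), near that background. With peaks of −log10 p of at least 10 only, 26 of the 161 and 3218 of all genes were left. Lists and genes below were chosen with earlier results of these data known and carry no test. Where 4 values follow a gene they are its fold in WT 1, WT 2, WT 3 and WT 4, and an average is its mean fold. A region that was not called is below the peak caller's threshold at this depth, and is not shown to be closed.

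Genes of lipid and sterol metabolism stood highest among them, with 16 of 30 in all 4 lists, 4 in some and 10 in none. Dgat1, which makes triglycerides, had a fold of 9.20, 9.20, 8.64 and 9.30 in WT 1 to WT 4 at a rank of 95.7 ± 0.504 (SD, n = 4). Fdps of the sterol pathway had 10.5, 9.38, 7.78 and 9.20. Acadm, an enzyme of fatty acid oxidation, had a mean fold of 8.39. The fatty acid synthase gene Fasn had a region 989 bp wide on average. Acacb, Scd1, Elovl6, Srebf1, Insig2 and Fdft1 had no gene-end region, though Scd1, Insig2 and Fdft1 had a shared region in the gene or within 10 kb.

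Liver transcription factors were close to the background, with 8 of 28 (28.6%) in all 4 lists and 16 (57.1%) in none. After Cebpb came Esrra, an oestrogen-related receptor of mitochondrial genes, with 8.01, 8.59, 6.54 and 8.25. Cebpa, the hepatocyte C/EBP factor, had 5.90, 8.26, 5.93 and 6.29, and Zbtb20, the repressor of Afp, had 6.92, 6.73, 6.79 and 6.5. Hnf4a, Hnf4g, Foxa1, Foxa2 and Onecut1 had no gene-end region in any of the 4 lists. Hnf4a and Onecut1 had a region in the gene or within 10 kb that was not shared. Ppara, Nr1h3, Cebpg and Foxa3 were the other 4 in all lists.

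Glucose and amino acid genes were near the background, with 7 of 27 (25.9%) in all 4 lists for each. Among glucose genes the glycolytic Eno1 (rank 92.8 ± 1.42, fold 8.11, 8.29, 8.08 and 7.78) and Pkm (fold 7.17, 9.51, 7.23 and 7.21) led. Pklr, the liver pyruvate kinase, averaged 7.53 in fold, and Hk2, a hexokinase that adult hepatocytes express little, 7.44. Hk1, Hk3, Gpi1, Aldoa and Ldha had no gene-end region, though Gpi1 and Aldoa had a shared region in the gene or within 10 kb. Glud1, glutamate dehydrogenase, led the amino acid list with 7.51, 10.5, 7.85 and 8.33 and a width of 773 bp on average. Glul, glutamine synthetase, had 6.67, 9.41, 7.72 and 7.29, and the ornithine carrier Slc25a15 and the glutaminase Gls2 averaged 6.93 and 7.08. The urea cycle genes Cps1, Otc, Arg1 and Nags, and also Gpt, had no gene-end region, and Ass1 had one in 2 lists and Asl in 1.

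Secreted protein and drug-handling genes had few regions. Of 25 plasma protein genes, 2 were in all 4 lists: Apoa2, with a fold of 7.48, 5.62, 4.90 and 8.19, and Rbp4, with 5.41, 5.90, 6.54 and 5.59. Another 11 had a region in some lists. Alb had a region in WT 2 alone (fold 6.15, chr5:90460737-90460978). Afp, Apoc1, Apoc3, Apoe, Fga and F9 had none. The number of plasma protein genes with a region was 11, 8, 2 and 5 in WT 1 to WT 4, highest in the deepest library and lowest in the shallowest. Of 24 genes of the cytochrome P450 and drug-handling list, none was in all 4 lists and 5 were in some, among them Gstm1, Abcc2 and Cyp51. Cyp1a2, Cyp2b10, Cyp2c29, Cyp2e1, Cyp3a11 and Cyp4a10 had none. With annotated transcription starts in place of gene ends, 1 of 19 genes of the drug-handling list had a region in all 4 lists. Por, Sult1a1 and Fmo5 of that list had a shared region in the gene or within 10 kb. Promoter windows of both lists held a median of 4 CpG pairs. None of 13 fetal liver and oncofetal genes was in all 4 lists, and Afp, Igf2, Gpc3, Lin28b, Igf2bp1 and Igf2bp2 had no region in any.

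Ribosome and growth genes mostly had a shared region, and the MYC genes themselves did not. The lists of growth genes together counted 47 of 86 (54.7%) with a shared gene-end region, beside 23.4% of all coding genes, and 30 at −log10 p of at least 10. Their promoter windows held a median of 21.5 (MYC-driven growth), 25 (MYC network) and 24 (cell cycle) CpG pairs. A shared region overlapped 62.5%, 52.9% and 32.4% of these windows. It overlapped 37.1% of all windows with 19 to 22 CpG pairs and 46.9% with 23 to 27. The part of CpG content in the list shares was not tested. Of 34 MYC-driven growth and ribosome genes, 26 were in all 4 lists, 7 in some and 1, Ubtf, in none. Ubtf had a shared region in the gene or within 10 kb. Prmt5, an arginine methyltransferase, had a fold of 12.8, 10.3, 7.5 and 7.98 in WT 1 to WT 4, so it varied between libraries. Nolc1, a nucleolar chaperone, had 7.73, 9.56, 8.13 and 10. Eif4a1, the RNA helicase of translation initiation, had 6.57, 6.42, 7.41 and 6.53, and Nop56, a core protein of box C/D particles, had 9.16, 7.53, 7.95 and 6.52. Their mean ranks lay between 83.5 and 89.3, against a median of 61.7 for the 26 genes. Odc1 and Ncl, long used as MYC target genes, had mean ranks of 51.6 and 82.6. An E-box stood in 7 of 40 windows of these genes (17.5%, against 7.91% of all windows), and a shared region overlapped 5 of those 7. The share was higher in some other lists, at 29.4% of windows of the MYC network, 23.5% of immediate early genes, 23.1% of fetal liver and oncofetal genes, 21.1% of urea cycle and amino acid genes and 20.8% of p53 and DNA damage genes.

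The MYC network itself was uneven, with 6 of 14 genes in all 4 lists. Mlxip, a MAX-network glucose sensor, had 9.12, 8.94, 7.84 and 8.77. Max, the partner of MYC, had 10.1, 9.74, 6.12 and 8.98, and the repressors Mxd4 and Mxd1 averaged 7.35 and 6.95. Myc, Mycn, Mycl and Mxi1 had no gene-end region, though Mxi1 had a shared region in the gene or within 10 kb. Myc had a gene-body region in WT 4 alone (chr15:61987533-61988057, fold 5.26), and reads of the MYC transgene were not told apart from it. Cell cycle genes stood at 15 of 38 in all 4 lists, 15 in some and 8 in none. Ccna2, cyclin A2, had 9.95, 7.77, 7.91 and 10.1. Cdt1, a replication licensing factor, averaged 8.02 ± 1.01 (SD, n = 4), and the kinase gene Aurka and the cyclin gene Ccne2 averaged 8.32 and 6.74. Ccnd1, Ccnd2, Ccnd3, Cdk6, Tyms and Tk1 had no gene-end region, though Ccnd3 had a shared region in the gene or within 10 kb.

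Of the stress genes, 78 of 134 (58.2%) had a shared gene-end region, beside 23.4% of all coding genes. Promoter windows of the stress lists held medians from 20 to 25 CpG pairs. A shared region overlapped from 40% (oxidative stress) to 86.7% (heat shock and chaperones) of them. For all windows with 19 to 22 and 23 to 27 CpG pairs the shares were 37.1% and 46.9%. Heat shock and chaperone genes led, with 23 of 28 in all 4 lists, 4 in some and Hsf2 in none, and a median rank of 74.5. A shared region overlapped an Hsf2 promoter window farther than 1000 bp inside the annotated gene. Hspa9, the mitochondrial Hsp70, had 9.24, 8.05, 8.73 and 8.62 in WT 1 to WT 4. Tcp1, a subunit of the TRiC chaperonin, had 9.36, 10.7, 8.49 and 7.43, and Dnajb1, the main inducible Hsp40, had 8.95, 7.47, 6.67 and 8.05. Cct3, another TRiC subunit, averaged 8.37. Hspd1 and Hspe1 share 1 region, as do Hsf1 of this list and Bop1 of the growth list. The inducible Hsp70 genes Hspa1a and Hspa1b, which are near-identical copies, had a region in 1 and 3 lists, and reads between such copies cannot be placed with certainty.

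The response to misfolded protein in the endoplasmic reticulum gave 17 of 27 in all 4 lists. Ppp1r15b, which lets translation resume under stress, had 8.33, 9.20, 8.79 and 9.29 at a rank of 94.6 ± 1.97 (SD, n = 4). Pdia3, Calr and Dnajb11, which fold proteins there, averaged 8.35, 7.38 and 8.63. Trib3 and Creb3l3 had no gene-end region, and both had a shared region in the gene or within 10 kb. Of 23 genes of the p53 and DNA damage list, 13 were in all 4 lists. Atm, the kinase that senses double-strand breaks, had 7.60, 12.1, 9.54 and 9.71, and Chek2, its target kinase, had 9.32, 9.59, 6.10 and 8.08. Sesn1 and Xpc averaged 6.93 and 7.75, and Trp53 6.92. Mdm4, Cdkn1a and Tnfrsf10b had no gene-end region.

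Immediate early genes, which respond within minutes to growth signals, stood at 17 of 33 in all 4 lists. Btg2 had a fold of 6.76, 6.98, 6.28 and 7.41, and Klf2, Gadd45a and Atf3 averaged 7.85, 7.88 and 7.23. Jun and Jund combined wide regions with low folds, at 712.8 and 1099 bp and 4.82 and 4.70. Fos had a region in 2 lists, and Fosl1, Egr2, Egr3, Ier3, Dusp6 and Zfp36 had none. Among these, Fos and Egr2 had a shared region in the gene or within 10 kb. Oxidative stress genes reached 8 of 23. Gclm of glutathione synthesis had 7.14, 8.87, 6.96 and 9, and Sod2, the mitochondrial superoxide dismutase, had 8.47, 7.37, 8.01 and 9.38. Nfe2l2, the NRF2 regulator itself, averaged 6.52 and Txn1 6.84. The NRF2 targets Nqo1, Hmox1, Txnrd1, Srxn1 and Slc7a11, and also Gpx4, had no gene-end region, and Hmox1 and Gpx4 had a shared region in the gene or within 10 kb. A list of 25 housekeeping genes gave 12 in all 4 lists, led by Polr2a, Rpl13a, Eef2 and Ppia with mean folds from 5.63 to 6.89. Actb, Hprt, Tbp, Ywhaz, Psmb4 and Reep5 had no gene-end region, and Actb, Tbp and Ywhaz had a shared region in the gene or within 10 kb.

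**Figure D5:**
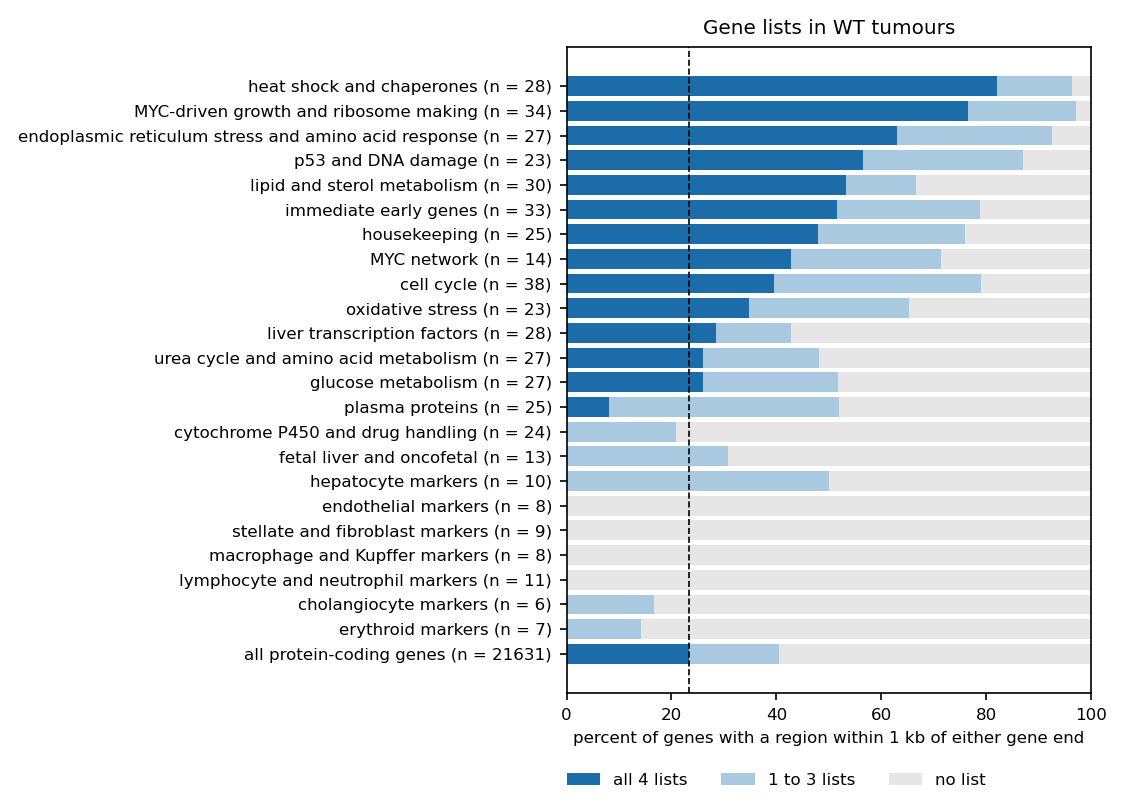
Percent of the genes of each list, and of all 21631 protein-coding genes at the bottom, with a gene-end region in all 4 WT lists, in 1 to 3 lists or in none. The dashed line marks the 23.4% of all genes, and the chaperone list stands highest at 82.1%.

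Markers of cell types were scarce, including those of the tissue itself. Of 10 hepatocyte markers, none had a gene-end region in all 4 lists, 5 had one in some (Alb, Ttr, Apoa1, Apob and Trf) and Serpina1a, Hnf4a, Cps1, Asgr1 and Tat had none. The count with a region was 3, 4, 0 and 1 in WT 1 to WT 4. The label of liver tumour is therefore not shown by hepatocyte marker promoters in these lists. None of 8 endothelial markers, 9 stellate and fibroblast markers, 8 macrophage and Kupffer markers and 11 lymphocyte and neutrophil markers had a gene-end region in any list. Cd68, Cd3g, Cd79a and Nkg7 of these lists had a shared region in the gene or within 10 kb, which can belong to a neighbouring gene. Of 6 cholangiocyte markers Epcam had a region in 2 lists, and of 7 erythroid markers Nfe2 had one in 2. Beside these counts, 59.5% of all coding genes had no gene-end region and 23.4% had one in all 4 lists. Promoter windows held medians of 4 (hepatocyte), 4 (endothelial), 12 (stellate), 3 (macrophage), 4 (lymphocyte), 11 (cholangiocyte) and 4 (erythroid) CpG pairs. A shared region overlapped 0.039% of all windows with 2 to 3 CpG pairs, 0.505% with 4 to 5 and 12.3% with 9 to 13. The part of CpG content in these marker counts was not tested. In a bulk tumour, fewer cells of a type and less accessible DNA per cell cannot be told apart.

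Arid1a, floxed but intact by label in these mice, had no region within 1000 bp of a gene end. It had 1 shared gene-body region at chr4:133754054-133754556, with a fold of 5.64, 6.78, 4.68 and 5.28 in WT 1 to WT 4 (mean 5.60 ± 0.883, SD, n = 4). The annotated gene spans chr4:133679008-133756769, so this region would count as gene-end with a 2500 bp window. It was among the 559 shared gene-body regions measured against annotated starts, but its own distance is not reported here. Another shared region, at chr4:133672292-133672966 within 10 kb of Arid1a, lay in the body of the neighbouring gene Pigv with a mean fold of 6.5. Genes on the X chromosome had few shared regions, 35 of 966 (3.62%), against 5021 of 20665 on the autosomes (24.3%). Among promoter windows with at least 19 CpG pairs, a shared region covered 31 of 206 on X (15.05%), against 3783 of 7883 on the autosomes (48.0%). The same windows with a region in the single lists were 33.5%, 29.6%, 22.8% and 29.1% on X in WT 1 to WT 4, against 66.6%, 62.6%, 55.8% and 65.8% on the autosomes. The X share was the lower in 4 of 4 libraries. The number of X chromosomes per cell is not given in the labels and was not tested. Each WT list also held rows on the Y chromosome, 36, 19, 26 and 30 in WT 1 to WT 4.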

How the data were processed

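The authors deposited a separate peak list for each WT library, so regions can be compared between libraries. Per the submitters' processing notes, the tools were Bowtie2, MACS2 and deepTools and the build was mm10, without versions. Read filters, settings and read numbers were not given in the sources used here. The deposited fold is the pileup plus 1 over the local background plus 1, a ratio, and the −log10 p and −log10 q values deposited beside it belong to the same summit. These are the authors' values and were used here only to describe and rank peaks within a list.

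Rows on chromosomes 1 to 19 and X that overlapped or touched would have been merged, but none did. Places were set by 21631 protein-coding genes (RefSeq, GRCm38.p6; gene ends known, exons and UTRs not), in the order gene end (within 1000 bp), gene body, intergenic. A gene took the values of its strongest gene-end region in each list. Pileup and background were recovered from fold and −log10 p (tolerance 0.001 in −log10 p) for more than 99.9% of rows, and the lowest background shared by at least 10 rows was taken as depth. It was not checked against read totals.

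All 478 entries of 23 gene lists were found (467 genes). The members and lists were chosen with earlier results of these data known. Genes named are Arid1a, Alb, Cebpb and Myc, the 15 strongest gene-end, 8 strongest gene-body and 8 strongest intergenic regions, the 5 widest and 5 narrowest gene-end regions and, per list, the 4 strongest shared members and up to 6 without a gene-end region in list order. A few other members were named after their values were seen. Some members that this rule names are not reported here. Place differences were tested by exact sign-flip permutation over the 4 libraries, two-sided, with Benjamini-Hochberg adjustment over 9 tests. The steps were tested on simulated lists. Python 3.11.15, numpy 2.4.6, pandas 2.3.3 and scipy 1.17.1 were used.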

Additional observations from a re-analysis of the deposited data

Results flagged for a closer look

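Among 76 groups of 4 values checked for a value far from the other 3, 3 stood out, and chance gives about 1 in 20. The number of lipid and sterol genes with a gene-end region was 20 in WT 1 and 18 in each other library, so the gap was the whole range (ratio 1). The number of MYC network genes was 9 in WT 1 and 7 in each other library (ratio 1). The number of cell cycle genes was 18 in WT 3, the shallowest library, against 26, 26 and 27 in WT 1, WT 2 and WT 4 (ratio 0.889).

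Rows outside the chromosomes used were present in every WT list and were not analysed further. The mitochondrial genome had 2 rows in each list, and the Y chromosome had 36, 19, 26 and 30 rows in WT 1 to WT 4.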

How the results depend on the processing

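Of 255 recomputed values, 223 kept their direction or size, 23 moved and 9 changed sign. The signs of the width differences and of the fold and −log10 p differences from intergenic regions held under every alternative run, but without regions of mean fold 15 or more the fold differences from intergenic regions were close to 0, at −0.02 for gene ends (exact permutation p = 0.875) and −0.09 for gene bodies (exact permutation p = 0.625). The near-zero differences of gene ends minus gene bodies did not. With a replicate left out, the difference in fold ranged from −0.015 to 0.0737 and that in −log10 p from −0.0301 to 0.341. The sign also changed with a 500 bp window (0.0558 and 0.0862) and without regions of mean fold 15 or more (0.0677 and 0.309), the last added after seeing the data. At −log10 p of at least 10, which by construction leaves fewer peaks, shared regions fell to 3273, genes to 3218, liver list members to 26 and growth list members to 30. The gene-end share was 71.9% with a 500 bp window and 80.5% with 2500 bp. Of the 100 strongest shared regions, 16 stayed when ranked by width and 26 stayed when regions of mean fold 15 or more were left out. Of the 100 strongest gene-end regions, 66 stayed when ranked by fold and 8 by width. Leaving out WT 1, WT 2, WT 3 or WT 4 kept 74, 70, 69 and 77 of these gene-end regions. The same runs kept 99, 97, 98 and 97 of the 100 strongest shared regions. Thinning to the shallowest library left 4827 shared regions and 4742 genes. Leaving out WT 3, the shallowest, gave 6362 regions shared by the other 3. No paired analysis was possible because only WT libraries were used and no groups of samples were compared; place differences were taken within each library. Depth limits what a missing region means, and with 4 libraries the exact sign-flip test cannot pass 0.05.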
